A study of Mus musculus with 2 samples.

Results

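The genes described here set the pace of the G1 phase of the cell cycle, and they were compared between differentiating C3H10 cells with and without knockdown of the long noncoding RNA MALAT1. They are the D-type cyclins Ccnd1, Ccnd2 and Ccnd3, their kinases Cdk4 and Cdk6, the E-type cyclins Ccne1 and Ccne2, the CDK inhibitor Cdkn1b (p27), the retinoblastoma gene Rb1 and the transcription factor E2f1. These 10 members were taken by gene symbol and not by their measured values. All 10 were found among the 46095 genes of the table, and all 10 were among the 17356 genes that reached a sum of 10 counts and could be tested.

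C3H10 cells are a mouse embryonic fibroblast line that can form adipocytes, and the labels give their strain as C57BL/6. The control cells received a negative control antisense oligonucleotide (ASO) and the MALAT1-knockdown cells an ASO against MALAT1, each at 100 nM, before they reached confluence. An ASO is a short synthetic strand that directs cleavage of the RNA it pairs with, and the sources used here do not say which of the study's ASOs the sequenced cells received. Both groups were then given isobutylmethylxanthine, dexamethasone, troglitazone and insulin for 2 days, kept in insulin, and taken at day 6 of differentiation. Each group is 1 library of rRNA-depleted total RNA, with 58147539 counts for control cells and 61653549 for MALAT1-knockdown cells.

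With 1 library per group no difference has a replicate check, and every p-value below compares these libraries, not the conditions. Intervals are 95% exact (Clopper-Pearson) limits and cover counting error only. Values in CPM (counts per 1000000 counts of the scaled library) and log2 fold changes of knockdown over control were computed after library scaling, and the test was a two-sided exact binomial test adjusted by the Benjamini-Hochberg method over all genes tested. Where a pair of values is given, the control library comes first. Malat1 itself had 170402 counts in the control library and 45396 in the knockdown library, so that 24.7% of the control level was left.

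Growth signals raise the D-type cyclins, which bind Cdk4 or Cdk6 and begin the phosphorylation of Rb1. Phosphorylated Rb1 lets go of E2F factors such as E2f1, and these switch on the E-type cyclins and the enzymes of DNA replication. Cyclin E bound to Cdk2 completes the phosphorylation of Rb1, while p27 holds cyclin E-Cdk2 inactive until it is degraded. In preadipocyte lines the hormonal cocktail sets off a limited round of division before the cells leave the cycle and fill with lipid. Cyclin D1 has been described as a repressor of PPARγ activity, and cyclin D3 and Cdk4 as promoters of it.

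Most of the members stood somewhat higher in MALAT1-knockdown cells after library scaling, and the differences were modest. A scaling by fibroblast and preadipocyte markers, given below, turned the sign of 4 members. The log2 fold change was above 0 for 8 of 10 members. It was above 0 for 8612 of the 17356 genes tested, and for 4381 of the 8251 with a mean of at least 1000 counts. At an adjusted p under 0.05, 6 members were higher (Ccnd1, Ccne1, Ccne2, Cdk4, Cdkn1b and E2f1) and 0 were lower. The same threshold was passed by 24.2% of all genes tested in the higher direction and by 23.8% in the lower direction. Only Ccnd1 among the members also passed a difference of 1.5-fold, which 4.37% of all genes tested did in the higher and 7.26% in the lower direction. The 1.5-fold line was set with earlier results of these data known, in which cell cycle genes differed by less than 2-fold. No member passed 2-fold, which 6.28% of all genes tested did in either direction. The members' median log2 fold change was 0.15, beside -0.0029 over all genes tested.

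Abundant genes pass a counting test more easily, and 9 of the members have a mean of at least 1000 counts, as 8251 genes do. Among these abundant members 5 of 9 were higher at the adjusted p, a threshold that 35.2% of the abundant genes passed in the higher and 30.1% in the lower direction. A 1.5-fold difference was rarer in this range, at 1.43% of genes higher and 2.84% lower. The difference of Ccnd1 exceeded that of 98.8% of the abundant genes. Ccnd2, Ccnd3, Cdk6, Cdkn1b and Rb1 lay within the interquartile range of the abundant genes, -0.11 to 0.13 on the log2 scale.

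**Figure D1:**
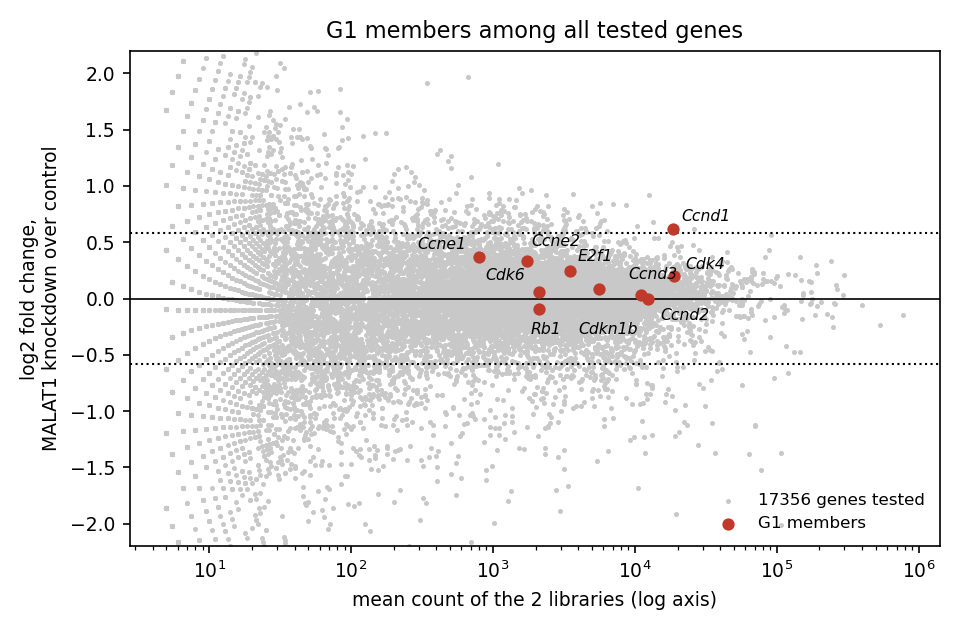
Log2 fold change (MALAT1 knockdown over control) against the mean count of both libraries (log axis) for the 17356 genes tested, in grey, with the 10 G1 members in red; dotted lines mark 1.5-fold. Ccnd1 lies on the upper line and the other members lie between the lines; 392 genes fall outside the plotted range of 2.2 on the log2 scale.

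The D-type cyclins did not move together. Ccnd1, the cyclin most directly induced by growth factors and cell adhesion, had 14129 counts in the control library and 23271 in the knockdown library, or 245 and 375 CPM. It was 1.53-fold higher in the knockdown library, with a log2 fold change of 0.61 (0.58 to 0.64), so that the lower limit lies just under the 1.5-fold line.

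Ccnd2 had 11866 and 12709 counts (206 and 205 CPM), a log2 fold change of -0.01 (-0.04 to 0.03; adjusted p = 0.786). Ccnd3, the D cyclin associated with terminal differentiation in several tissues, had 10527 and 11568 counts (182 and 186 CPM), a log2 fold change of 0.03 (-0.01 to 0.07; adjusted p = 0.213). The log2 fold change of Ccnd1 exceeded that of Ccnd2 by 0.62 (0.57 to 0.67) and that of Ccnd3 by 0.58 (0.54 to 0.63), whereas Ccnd3 and Ccnd2 differed by 0.04 (-0.02 to 0.09).

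The makeup of the D-cyclin counts shifted toward Ccnd1. In control cells Ccnd1 held 38.7% of the counts of the D cyclins (38.2% to 39.2%), and in MALAT1-knockdown cells it held 48.9% (48.5% to 49.4%). Ccnd2 went from 32.5% to 26.7% and Ccnd3 from 28.8% to 24.3%. The D cyclins summed had 36522 counts in the control library and 47548 in the knockdown library, 1.21-fold more after scaling (log2 fold change 0.27, 0.25 to 0.29).

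**Figure D2:**
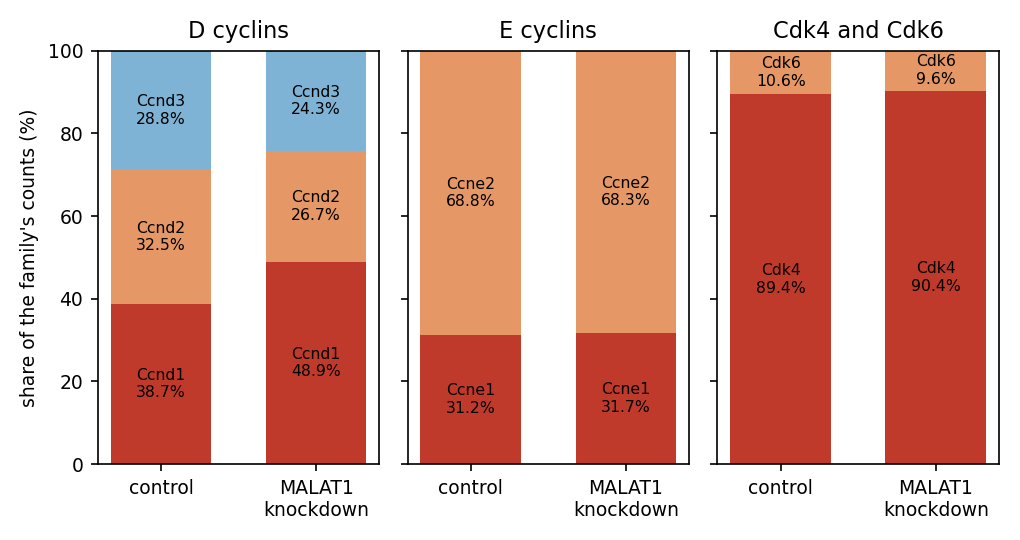
Share of counts (percent, axis from 0 to 100) of each gene within the D cyclins, the E cyclins and the Cdk4 and Cdk6 pair, with 1 bar for control and 1 for MALAT1-knockdown cells. The share of Ccnd1 goes from 38.7% to 48.9%, while the shares of Ccne1 and Cdk4 move by about 1 percentage point or less.

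The kinases that the D cyclins activate were represented mainly by Cdk4. Cdk4 had 16991 counts in the control library and 21057 in the knockdown library (294 and 339 CPM), a log2 fold change of 0.20 (0.17 to 0.23; adjusted p = 3.48e-41). Cdk6, its close relative, had 2010 and 2247 counts (34.8 and 36.2 CPM), a log2 fold change of 0.05 (-0.03 to 0.14; adjusted p = 0.334). The log2 fold change of Cdk4 was larger by 0.15 (0.06 to 0.24). Cdk4 held 89.4% of the counts of the pair in control cells (89.0% to 89.9%) and 90.4% in MALAT1-knockdown cells (90.0% to 90.7%). Ccnd1 had a log2 fold change larger than that of Cdk4 by 0.41 (0.37 to 0.45).

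Cdk4 is known as a target of Myc, which binds the E-box CACGTG, and its promoter is shown because that motif recurs in it. The 250 bases before the RefSeq start of Cdk4, at chr10:127063285-127063534 of GRCm38.p6 on the plus strand, hold 4 E-boxes, given in capitals, that begin at positions -172, -118, -98 and -11 from the start.

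Cdk4: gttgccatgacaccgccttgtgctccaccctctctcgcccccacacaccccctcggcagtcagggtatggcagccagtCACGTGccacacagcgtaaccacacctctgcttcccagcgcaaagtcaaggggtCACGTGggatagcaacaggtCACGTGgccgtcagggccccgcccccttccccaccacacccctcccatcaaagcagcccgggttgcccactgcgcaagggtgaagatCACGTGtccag

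Of the 32851 promoter windows of the same length, 6.02% hold a CACGTG, which reads the same on both strands, and 7 windows hold at least 4. A match is a description of the letters and not of binding. Myc had 3033 counts in the control library and 2567 in the knockdown library, a log2 fold change of -0.35 (-0.42 to -0.27).

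The E-type cyclins, which carry cells from G1 into S phase through Cdk2, were higher by similar amounts. Ccne1 had 673 counts in the control library and 935 in the knockdown library (11.7 and 15.0 CPM), a log2 fold change of 0.37 (0.22 to 0.51; adjusted p = 2.15e-06). Ccne2 had 1483 and 2013 counts (25.7 and 32.4 CPM), a log2 fold change of 0.33 (0.24 to 0.43; adjusted p = 8.14e-11). Their log2 fold changes differed by 0.03 (-0.14 to 0.21), and Ccne1 held 31.2% of the E-cyclin counts in control cells (29.3% to 33.2%) and 31.7% in MALAT1-knockdown cells (30.0% to 33.4%). Summed, the E cyclins had 2156 and 2948 counts, with a log2 fold change of 0.34 (0.26 to 0.43). Cdk2, their kinase, had 2882 and 3286 counts, with a log2 fold change of 0.08 (0.01 to 0.16) that missed the threshold.

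Cdkn1b encodes p27, which binds and blocks cyclin E-Cdk2 and also helps assemble cyclin D-Cdk4 complexes. It had 5202 counts in the control library and 5957 in the knockdown library (90.1 and 95.9 CPM), a log2 fold change of 0.09 (0.04 to 0.14; adjusted p = 0.00339). The log2 fold change of Ccnd1 exceeded that of Cdkn1b by 0.52 (0.46 to 0.59). The amount of p27 protein is set largely by its translation and degradation, which counts of RNA do not measure.

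The Cdkn1b promoter is shown for its CCAAT boxes, the element that the factor NF-Y binds. The window lies at chr6:134920151-134920400 of GRCm38.p6 on the plus strand and ends at the base before the start, with CCAAT in capitals at positions -161 and -35.

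Cdkn1b: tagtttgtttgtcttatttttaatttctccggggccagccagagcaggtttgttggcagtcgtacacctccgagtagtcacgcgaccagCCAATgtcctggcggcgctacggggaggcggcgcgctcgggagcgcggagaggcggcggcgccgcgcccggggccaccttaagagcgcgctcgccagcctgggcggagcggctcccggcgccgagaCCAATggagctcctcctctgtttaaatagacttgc

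CCAAT is a common motif. On either strand it is present in 33.8% of all windows and at least 2 times in 9.91%.

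Rb1, which restrains E2F factors, had 2114 counts in the control library and 2134 in the knockdown library (36.6 and 34.3 CPM). Its log2 fold change of -0.09 (-0.18 to -0.01) missed the threshold after adjustment (adjusted p = 0.0729). E2f1, an activating E2F that is itself an E2F target, had 3049 and 3887 counts (52.8 and 62.6 CPM), a log2 fold change of 0.24 (0.17 to 0.31; adjusted p = 2.00e-11). The log2 fold change of E2f1 exceeded that of Rb1 by 0.34 (0.23 to 0.45), and Rb1 had the lowest log2 fold change of the members.

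**Figure D3:**
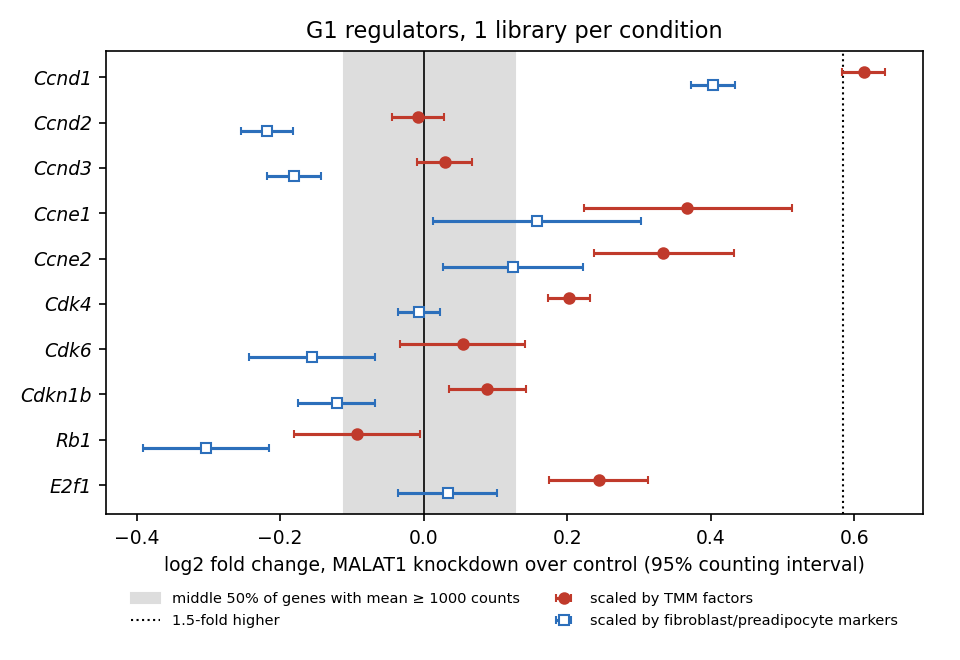
Log2 fold change of each of the 10 members, MALAT1 knockdown over control, with 95% intervals for counting error only. Red circles use the main library scaling, and open blue squares the scaling by fibroblast and preadipocyte markers described below. The dotted line marks 1.5-fold higher, and the grey band the interquartile range of genes with a mean of at least 1000 counts. Among the red circles, Ccnd1 stands apart from Ccnd2 and Ccnd3, both E cyclins lie together, and the interval of Rb1 lies just below 0.

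Levels were compared between genes per kilobase of each gene's longest GENCODE M21 transcript. In control cells Cdk4 was highest at 143 CPM per kilobase, followed by Ccnd1 at 65.5, Ccnd3 at 47.3 and Ccnd2 at 32.5. Cdkn1b (19.8) and E2f1 (19.2) came next with overlapping counting intervals. Ccne2 (8.55) and Rb1 (7.87) likewise had overlapping counting intervals, and Ccne1 (5.83) and Cdk6 (3.02 CPM per kilobase) were lowest.

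In MALAT1-knockdown cells the first 4 genes kept their order, with Cdk4 at 165 CPM per kilobase, Ccnd1 at 100.2, Ccnd3 at 48.3 and Ccnd2 at 32.3. E2f1 (22.7) then stood above Cdkn1b (21.1), and Ccne2 (10.8) above Ccne1 (7.52) and Rb1 (7.38 CPM per kilobase), whose intervals overlapped. Cdk6 was again lowest at 3.14 CPM per kilobase. A gene's level per kilobase depends on the transcript chosen, and the low value of Cdk6 goes with a longest transcript of 11525 bases. The longest Ccnd3 transcript, of 3858 bases, has 2 exons, while those of Ccnd1 and Ccnd2 have 5. With the shortest coding transcript Ccnd3 stood above Ccnd1 in both libraries, so their order depends on the transcript.

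**Figure D4:**
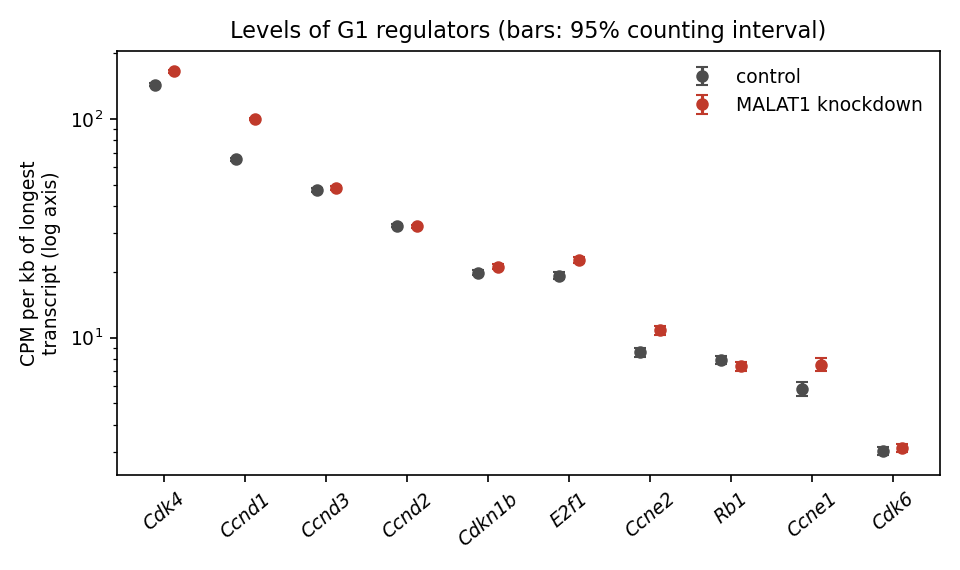
Level of each member in CPM per kilobase of its longest GENCODE M21 transcript (log axis) in control and MALAT1-knockdown cells, with 1 point per library. Cdk4 is highest and Cdk6 lowest in both libraries, and the widest gap between the libraries is that of Ccnd1, at 65.5 and 100.2.

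In GENCODE M21, which uses GRCm38, all members are protein-coding genes. The D cyclins are Ccnd1 (chr7:144929931-144939925, minus strand), Ccnd2 (chr6:127125162-127152193, minus) and Ccnd3 (chr17:47505051-47599691, plus), and the E cyclins are Ccne1 (chr7:38097984-38107534, minus) and Ccne2 (chr4:11191351-11204779, plus). Cdk4 spans chr10:127063534-127067920 on the plus strand and Cdk6 chr5:3341485-3531008 on the plus strand. Cdkn1b lies at chr6:134920401-134925513 (plus), Rb1 at chr14:73183673-73325822 (minus) and E2f1 at chr2:154559407-154569892 (minus).

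Several members share exonic bases with a gene on the opposite strand. The library kit keeps the strand, but whether the counting used it is not given in the sources used here, so such counts could hold reads of the partner. The largest overlap is that of Ccnd1 with Oraov1, which covers 1100 bases or 23.4% of the exonic bases of Ccnd1. Oraov1 had 1296 and 1617 counts, far fewer than Ccnd1. Cdk4 shares 641 bases (19.7%) with Tspan31, which had 10335 counts in the control library and 10714 in the knockdown library. Ccne2 shares 609 bases (17.4%) with Ints8, which had 4159 and 4850 counts, more than Ccne2 in each library. Rb1 shares 488 bases (8.11%) with Rcbtb2 and 408 (6.78%) with Lpar6, whose log2 fold changes were -0.23 and -0.29. The part of these partners in the members' values was not tested. Of the near-identical copies found by sequence, Ccnd3-ps had 1 count in each library, and Gm16505, a copy of Cdk6, had 0 in both.

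The remaining genes of the pathway were read from lists chosen by function. Over 4 lists of G1 regulators outside the members, 38 genes were tested, of which 20 were higher and 5 lower at the adjusted p, with a median log2 fold change of 0.09.

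None of the other CDK inhibitors was higher at the adjusted p. Of 5 tested, 0 were higher and 2 were lower, with a median of -0.15, and Cdkn1c had 0 counts in both libraries. That median is the value of Cdkn2a, which had only 33 and 32 counts, and Cdkn2b had 12 and 7. Cdkn2d had a log2 fold change of 0.04 (-0.07 to 0.15). Cdkn2c (p18), an inhibitor of Cdk4 and Cdk6, had 5011 counts in the control library and 3851 in the knockdown library, a log2 fold change of -0.49 (-0.55 to -0.43). The log2 fold change of Cdkn1b exceeded that of Cdkn2c by 0.58 (0.49 to 0.66). Cdkn1a (p21) had 16235 and 15975 counts, with a log2 fold change of -0.13 (-0.16 to -0.10).

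Among the other pocket proteins, E2F factors and their DP partners, 8 of 11 were higher and 1 was lower, with a median of 0.22. E2f7 and E2f8, atypical E2Fs that repress E2F targets late in the cycle and are E2F targets themselves, were the ones past 1.5-fold. E2f7 had 479 and 920 counts, with a log2 fold change of 0.83 (0.67 to 0.997), and E2f8 had 723 and 1382 counts, with a log2 fold change of 0.83 (0.70 to 0.96). Rbl2, the pocket protein p130 of resting cells, was the lower gene, at -0.09 (-0.15 to -0.03).

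Of 14 genes for Cdk2, CDK activation and the ubiquitin ligases of G1, 7 were higher and 1 was lower, with a median of 0.07. The lower gene was Fbxo31, a ligase subunit reported to target cyclin D1, which had 3888 counts in the control library and 2425 in the knockdown library, a log2 fold change of -0.79 (-0.86 to -0.71). Skp2, which directs degradation of p27, had 736 and 1055 counts, with a log2 fold change of 0.41 (0.28 to 0.55). Of the 8 genes of the MuvB complex, B-Myb and FoxM1, which drive genes of late S phase and mitosis, 5 were higher and 1 was lower, with a median of 0.29. Foxm1 went from 2218 to 3997 counts (log2 fold change 0.74, 0.67 to 0.82) and Mybl2 from 597 to 987 (0.62, 0.47 to 0.77), while Lin52 was the lower gene at -0.41 (-0.55 to -0.27).

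Genes that act after the G1 decision differed by more than the members did. All 21 S-phase genes known as E2F targets were higher at the adjusted p, 12 of them past 1.5-fold, with a median of 0.64. Those with intervals farthest from 0 were Mcm5, a subunit of the replicative helicase (2399 and 4906 counts, log2 fold change 0.93, 0.85 to 0.997), Uhrf1, which maintains DNA methylation (3891 and 7536 counts, 0.85, 0.79 to 0.90), and Mcm3 (3444 and 6541 counts, 0.82, 0.76 to 0.88). All 12 mitotic genes were higher too, 10 of them past 1.5-fold, with a median of 0.64. Bub1, a checkpoint kinase, had 982 and 1935 counts (0.87, 0.76 to 0.98), Cdc20, an activator of the anaphase-promoting complex, 1497 and 2770 (0.78, 0.69 to 0.87), and the mitotic kinase Plk1 1339 and 2449 (0.76, 0.67 to 0.86). E2f1, at 0.24, and both E cyclins, at 0.37 and 0.33, thus had smaller log2 fold changes than the medians of these lists.

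The growth factor response genes, the class of early genes that precedes Ccnd1 induction, were mixed. Of 12 tested, 3 were higher and 2 lower, with a median of 0.00, and Ets2 was the one past 1.5-fold (137 and 292 counts, log2 fold change 0.98, 0.69 to 1.29).

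**Figure D5:**
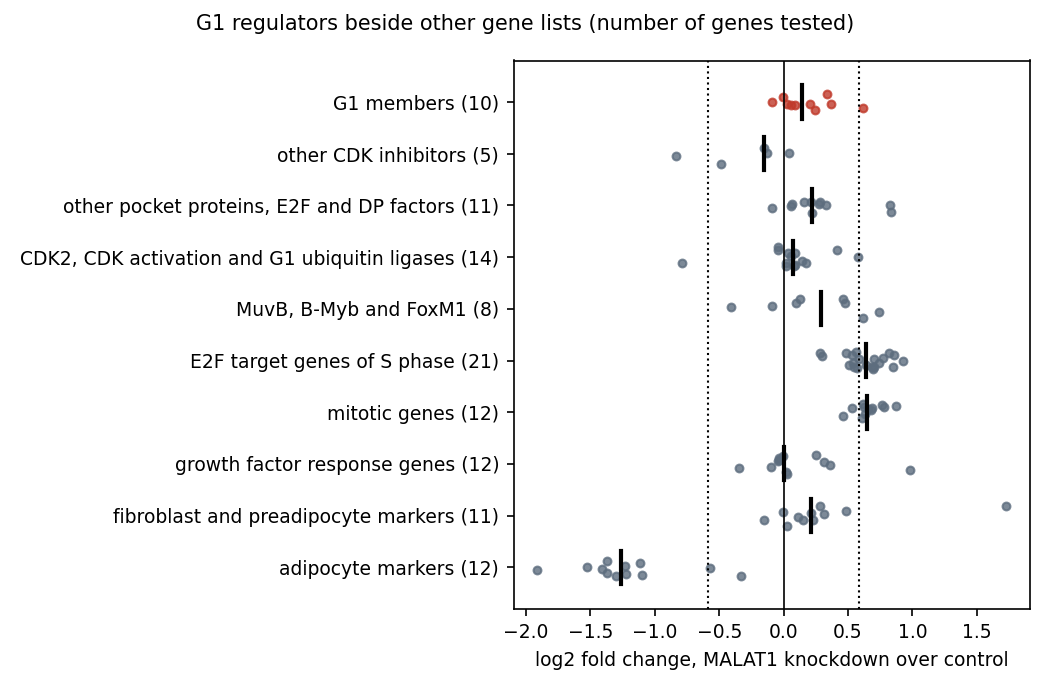
Log2 fold change (MALAT1 knockdown over control) of each tested gene of the members, in red, and of the other gene lists, in grey, with a bar at each list's median; dotted lines mark 1.5-fold and the number of genes tested is in parentheses. The S-phase and mitotic lists lie wholly above 0, the adipocyte markers lie wholly below 0, and the members' median of 0.15 lies within the range of the medians of the other G1 lists, from -0.15 to 0.29.

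E2F factors bind variants of TTTNNCG with C or G at each N, and short promoter stretches with a match are shown for Mcm5 and for E2f7. The stretch of Mcm5 lies at chr8:75109329-75109388 and that of E2f7 at chr10:110745209-110745268, both GRCm38.p6 on the plus strand, with the matches in capitals. In Mcm5 a match at -153 and another on the opposite strand at -148 overlap, and in E2f7 a match on the opposite strand begins at -197.

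Mcm5: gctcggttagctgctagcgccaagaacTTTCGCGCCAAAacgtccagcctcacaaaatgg

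E2f7: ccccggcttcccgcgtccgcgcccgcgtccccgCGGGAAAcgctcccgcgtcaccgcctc

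The motif was found on either strand in 5.51% of all 250-base windows and in 8 of the 17 S-phase genes with a window (47.1%). In the other G1 lists it was found in 5 of 9 pocket, E2F and DP genes and 6 of 13 genes of the Cdk2 list. It was also found in 2 of 5 other CDK inhibitors, 1 of 5 genes of the MuvB list and 1 of 11 mitotic genes. It was found in 0 of the 6 members with a window, which were Ccnd3, Ccne1, Cdk4, Cdk6, Cdkn1b and E2f1. These letters are absent from those windows only, since E2F sites can lie after the start or farther away. The windows of E2f1 and Cdk6 lie inside the GENCODE bounds of these genes, because their RefSeq starts do, and not before the GENCODE start. Ccnd1, Ccnd2, Ccne2 and Rb1 had no window in the RefSeq table used. The GC box GGGCGG, the element of Sp1, was found on either strand in 5 of the 6 members and in 32.7% of all windows. It was likewise found in 5 of 5 genes of the MuvB list and 4 of 5 other CDK inhibitors. The counts were 10 of 13 for the Cdk2 list, 5 of 9 for pocket, E2F and DP genes and 12 of 17 for S-phase genes. Lists were counted by gene, with a match in any of its windows, and the background by window.

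Markers of cell type moved alongside these genes. All 12 adipocyte markers were lower in MALAT1-knockdown cells at the adjusted p, 10 of them past 1.5-fold, with a median log2 fold change of -1.27, and their summed level went from 9809 to 4183 CPM. Gpd1, an enzyme of glycerol lipid synthesis, had 30396 and 8692 counts, the desaturase Scd1 had 111931 and 41856, and the fatty acid carrier Fabp4 had 151625 and 63240. Fibroblast and preadipocyte markers were 9 higher and 1 lower of 11 tested, with a median of 0.21 and a summed level of 19463 and 21300 CPM. Cd34 was the one past 1.5-fold (19 and 69 counts), and Dlk1 had 0 counts in both libraries. Macrophage, endothelial and skeletal muscle markers were each under 10 CPM summed in both libraries, and Adgre1, Itgam, Ptprc, Acta1, Myod1 and Myog had 0 counts in both. In a culture read as a whole, fewer cells of a type and less RNA per cell cannot be told apart.

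The part of this shift in the members' values was not tested, but its size can be set beside them. When the libraries were scaled so that the fibroblast and preadipocyte markers had a median of 0, a scaling chosen after seeing the data, Ccnd1 remained higher with a log2 fold change of 0.40 (0.37 to 0.43) but passed 1.5-fold no longer. The other D cyclins then stood at -0.22 for Ccnd2 and -0.18 for Ccnd3. E2f1 was at 0.03 (adjusted p = 0.423), Ccne1 at 0.16 (adjusted p = 0.0526) and Ccne2 at 0.12. Cdk6 was at -0.16 and Rb1 at -0.30. Ccnd3, Cdk6, Cdk4 (-0.01) and Cdkn1b (-0.12) changed sign, as did the members' median (-0.06). At the adjusted p, 2 members were then higher (Ccnd1 and Ccne2) and 5 lower (Ccnd2, Ccnd3, Cdk6, Cdkn1b and Rb1). The main scaling gave 6 higher and 0 lower. The medians of the other G1 lists were -0.36 for the CDK inhibitors, 0.01 for the pocket, E2F and DP genes, -0.14 for the Cdk2 list and 0.08 for the MuvB list. The S-phase and mitotic lists each had a median of 0.43 in place of 0.64, with 4 of 21 S-phase genes and 1 of 12 mitotic genes past 1.5-fold in place of 12 and 10. Of the 17356 genes tested, 410 were past 1.5-fold in the higher direction with this scaling, in place of 759. The difference between Ccnd1 and the other D cyclins does not depend on scaling, since it is a ratio within each library.

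The calls also rest on how much cultures of 1 group vary, which 1 library per group cannot show. With edgeR's exact test and a preset biological coefficient of variation of 0.1, Ccnd1 was the 1 member that passed (adjusted p = 0.0468), and at 0.2 no member did, with an unadjusted p of 0.137 for Ccnd1. Of the S-phase genes, 11 of 21 passed 1.5-fold at 0.1 and 0 at 0.2.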

How the data were processed

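RNA-seq was done on 1 library of control and 1 of MALAT1-knockdown C3H10 cells. The authors deposited raw counts of reads per gene symbol. The submitters' processing notes name HISAT2 and GRCm38 without a version. The counting tool, the annotation and the use of strand are not given in the sources used here. The genes, the lists and the 1.5-fold line were chosen with earlier results of these data known.

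Library sizes were scaled by TMM factors (edgeR 4.0.16, R 4.3.3), 0.992 for control and 1.01 for knockdown. Genes with at least 10 summed counts were tested by a two-sided exact binomial test against the scaled library sizes (Python 3.11.15, scipy 1.17.1). The code was first run on simulated libraries. These held counting error only, as the test assumes, so that check does not cover variation between cultures. Log2 fold changes used a prior count of 0.5, and intervals are 95% Clopper-Pearson limits. With 1 library per group, edgeR's quasi-likelihood test has no spread to estimate.

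The text names all 10 members, Malat1 and, in each list, up to 3 genes past 1.5-fold with intervals farthest from 0, or else the gene with the farthest interval; the macrophage, endothelial and muscle genes under this rule are given only as sums. Myc, Cdk2, Cdkn1a, Cdkn2a, Cdkn2b, Cdkn2d, Rbl2, Skp2 and Lin52 were named after their values were seen. Positions and lengths came from GENCODE M21 (GRCm38) and promoter sequences from RefSeq (GRCm38.p6). Alternatives were library totals, DESeq2 (1.42.0) size factors, upper-quartile factors, other filters and prior counts, edgeR's exact test at preset dispersions, counts divided by 4 and the shortest coding transcript. Scaling by fibroblast and preadipocyte markers was added after seeing the data.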

Additional observations from a re-analysis of the deposited data

How the results depend on the processing

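No value below has a replicate behind it, and leaving out a replicate was not possible with 1 library per group. No paired analysis was possible because each group is 1 library. Over 10 alternatives to the processing, the 10 members gave 100 log2 fold changes or tests, of which 78 kept their direction and their side of the threshold, 19 missed the threshold, 1 passed it (Ccnd3 under library totals, 0.05, adjusted p = 0.0189) and 2 changed sign without passing the threshold (Ccnd2, at 0.015 under library totals and 0.0020 under upper-quartile factors). Some of the 78 were fixed by the setting. A prior count of 2 leaves the test unchanged, and the preset dispersions keep the main log2 fold changes and only widen the spread. The scaling alternatives moved no member by more than 0.022 on the log2 scale. They moved the median of all genes from -0.0029 to at most 0.019.

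With edgeR's exact test at a preset biological coefficient of variation of 0.1, 1 member passed the adjusted p, and 1079 genes passed 1.5-fold and 667 passed 2-fold. At 0.2, 0 members passed the adjusted p and 0 passed 1.5-fold, with 117 genes past 1.5-fold and 117 past 2-fold. At 0.4, 0 members passed either line and 1 gene passed each, with an unadjusted p of 0.463 for Ccnd1. Counts divided by 4 left 749 genes past 1.5-fold and 256 past 2-fold, with Ccne1 (adjusted p = 0.0647) and Cdkn1b (0.318) no longer past the threshold. Requiring 10 counts in each library left 561 genes past 2-fold. These fewer calls follow from the wider spread, the fewer counts or the fewer genes that each alternative assumes.

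Scaling by fibroblast and preadipocyte markers, chosen after seeing the data, turned the sign of Ccnd3 (-0.18), Cdk6 (-0.16), Cdk4 (-0.0071), Cdkn1b (-0.12) and the members' median (-0.064). At the adjusted p, 2 members were then higher and 5 lower, and 0 members passed 1.5-fold. With the shortest coding transcript in place of the longest, 0 of 10 members in control cells and 1 of 10 in MALAT1-knockdown cells kept their place in the order of levels per kilobase. The counts are the same in both orders and only the lengths differ. The length of Cdk6 goes from 11525 to 376 bases, for example, while those of Ccnd1 and Rb1 stay the same.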
